A study of Mus musculus with 24 samples.

Results

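The NFAT (nuclear factor of activated T cells) transcription factors Nfatc1, Nfatc2, Nfatc3 and Nfat5 were followed in mouse splenic B cells by every probe set that the array's probe-to-gene table assigns to 1 of them alone. These 4 genes have 19 probe sets among the 45037 probe sets that are not controls: 5 for Nfatc1, 6 for Nfatc2, 2 for Nfatc3 and 6 for Nfat5. A probe set is a group of short probes on an Affymetrix array that together report 1 transcript or several. The mice were C57BL/6 animals, given as 6 to 8 weeks old for most experiments. In the KO groups, exon 3 of Nfatc1 was flanked by loxP sites and the mice carried mb1-cre (Cd79a), as the KO samples are described (the protocol shared by all samples names other Cre lines too), which drives Cre recombinase in the B lineage and so directs the deletion to B cells. In the WT groups the B cells came from control mice, whose alleles the labels do not give. Splenic B cells of both genotypes were taken at 0 h, without stimulation, and after 3, 8 and 16 h of anti-IgM, which binds surface IgM and so triggers B cell receptor signalling, and were enriched with beads. Each of the 8 groups had 3 biological replicates, 1 array each, which makes 24 arrays. No group was kept for the same hours without anti-IgM, so effects of anti-IgM and of time cannot be told apart. The study's title asks how NFATc1 shapes survival, function and suppression in B cells after receptor stimulation.

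In lymphocytes, receptor engagement releases calcium from internal stores and opens calcium channels of the plasma membrane. Calcium then activates calcineurin, a phosphatase that removes phosphates from NFATc1, NFATc2 and NFATc3, which move to the nucleus and bind DNA, often beside AP-1 factors, while kinases return them to the cytoplasm. NFAT5 has a related DNA-binding domain but lacks the calcineurin docking region and is best known for the response to hypertonic stress. The Nfatc1 gene uses more than one promoter and polyadenylation site and is known in lymphocytes for an induced short isoform, whereas Nfatc2 and Nfatc3 are known for steadier transcription. All values below are log2 of the deposited MAS5 signals, so that a difference of 1 is a doubling of signal. A difference was called when its limma p-value, adjusted by the Benjamini-Hochberg method over all 33486 probe sets tested, was under 0.05.

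RefSeq start sites were looked up for every member, to show the sequence in front of them. The promoter table (GRCm38.p6, from 250 bases before to 50 bases after each start) held 5 windows for 3 of the members, Nfatc2, Nfatc3 and Nfat5. It held no window for Nfatc1. Each is printed 5′ to 3′ on the gene's strand, with capitals marking GGAAA, the core that NFAT proteins bind, or its reverse complement TTTCC.
Nfatc2 chr2:168601608-168601907 (minus strand): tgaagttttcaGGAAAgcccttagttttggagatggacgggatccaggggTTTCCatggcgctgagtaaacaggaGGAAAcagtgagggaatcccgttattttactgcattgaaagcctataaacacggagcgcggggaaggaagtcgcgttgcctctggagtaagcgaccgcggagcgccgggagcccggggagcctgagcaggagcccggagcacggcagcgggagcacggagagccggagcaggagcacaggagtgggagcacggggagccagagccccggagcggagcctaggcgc
Nfatc2 chr2:168590316-168590615 (minus strand): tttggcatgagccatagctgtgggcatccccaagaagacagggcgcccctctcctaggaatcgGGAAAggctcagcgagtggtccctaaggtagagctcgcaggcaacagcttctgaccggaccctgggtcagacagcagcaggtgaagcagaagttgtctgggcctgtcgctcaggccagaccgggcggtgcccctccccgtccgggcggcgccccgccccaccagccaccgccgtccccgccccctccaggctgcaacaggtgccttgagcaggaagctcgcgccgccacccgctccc
Nfatc3 chr8:106058568-106058867 (plus strand): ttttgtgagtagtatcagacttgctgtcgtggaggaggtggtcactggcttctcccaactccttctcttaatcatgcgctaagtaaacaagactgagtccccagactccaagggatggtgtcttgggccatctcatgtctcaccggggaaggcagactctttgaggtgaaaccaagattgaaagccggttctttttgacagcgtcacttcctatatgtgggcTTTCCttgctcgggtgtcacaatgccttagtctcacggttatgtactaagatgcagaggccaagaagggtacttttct
Nfatc3 chr8:106059340-106059639 (plus strand): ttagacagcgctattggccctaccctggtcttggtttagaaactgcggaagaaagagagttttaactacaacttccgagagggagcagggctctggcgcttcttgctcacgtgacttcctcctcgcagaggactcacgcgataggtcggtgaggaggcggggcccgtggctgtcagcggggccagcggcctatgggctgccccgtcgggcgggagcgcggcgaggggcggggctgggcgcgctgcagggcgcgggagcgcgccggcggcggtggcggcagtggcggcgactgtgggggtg
Nfat5 chr8:107293220-107293519 (plus strand): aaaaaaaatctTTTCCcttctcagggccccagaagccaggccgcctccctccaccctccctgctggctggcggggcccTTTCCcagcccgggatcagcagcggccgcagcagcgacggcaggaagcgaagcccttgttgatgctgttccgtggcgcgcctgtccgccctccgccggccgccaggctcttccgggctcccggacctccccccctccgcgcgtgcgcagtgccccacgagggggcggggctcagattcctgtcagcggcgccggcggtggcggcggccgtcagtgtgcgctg

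The first Nfatc2 window held 3 such cores, at 239, 200 and 175 bases before the start site. The second Nfatc2 window held 1, at 187 bases before the start. Of the Nfatc3 windows, one held 1 core at 28 bases before the start and the other held 0. The Nfat5 window held 2, at 239 and 172 bases before the start. The 5 letters are common: 61.3% of the 32851 windows of that length held at least 1 match on either strand, 26.7% at least 2 and 9.42% at least 3. The windows of Nfatc2, Nfatc3 and Nfat5 held neither TGANTCA, the AP-1 motif, nor TGACGTCA, the cyclic AMP response element, on either strand; 7.81% and 1.79% of all windows did. A match describes the letters in a window and not binding.

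The cells carried B cell transcripts on every array: all 8 B cell marker genes on the array (of 9 listed), among them Cd79a, Ms4a1 and Pax5, were above the filter level, the 40th percentile of the array's signals (5.38 to 6.42), on all 24 arrays. Of the 9 T cell markers on the array, Cd4 and Cd8b1 were above it on 0 arrays, Cd3e and Cd3d on 4, Cd3g on 5 and Thy1 on 10. Cd5 and Lat were above it on 22 arrays and Cd8a on 24. Of the NK markers, Klrd1 was above it on 21 arrays, Gzma and Nkg7 on 14, Klra8 on 12 and Ncr1 on 5. The myeloid list had 4 of 8 markers, led by Lyz2, above it on all arrays. The X-linked Xist read below a Y-linked gene in the 4 arrays of WT replicate 2 and in none of the other 20. That replicate was thus taken to differ from the rest in sex. Results of the NFAT members that rest on it are given without it where that changed the call. For all other genes named below, the calls without it were not looked at. The values are bulk RNA, in which fewer cells of a type and less RNA per cell cannot be told apart. Against 0 h, 1 of the 8 B cell markers was called higher and 7 lower in WT at 3 h (median change -1.21). At 16 h there were 0 and 8 (-1.91). In KO the counts were the same (-1.58 and -1.69). Of all probe sets, 18% were lower in WT at 3 h and 18.7% at 16 h. The part of these falls in the changes of the NFAT members was not tested.

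Of the 19 NFAT probe sets, 11 were above the filter level on all 24 arrays, 7 on some arrays and 1, Nfatc2 1426031_a_at, on none. That one was left out of the tests, which covered the other 18. The 11 were all 5 of Nfatc1, both of Nfatc3, 3 of Nfat5 and 1 of Nfatc2. The 4 other tested Nfatc2 probe sets passed on 7 to 21 arrays and the remaining 3 of Nfat5 on 3 to 22. Probe names ending in _a_at or _s_at mark sets whose probes can match several transcripts, and levels are not compared between probe sets.

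Nfatc1 was the member that rose over the hours of anti-IgM. In its brightest probe set, 1428479_at, the WT arrays read 11.79, 11.96 and 12.01 at 0 h and 13.21, 13.12 and 13.31 at 3 h. At 8 h they read 12.35, 12.29 and 12.71, and at 16 h 11.88, 11.65 and 12.08. Every 3 h array lay above every array of the other WT times, and the 16 h arrays overlapped those at 0 h. The signal was thus 1.30 higher at 3 h than at 0 h (SE 0.127, adjusted p = 2.66e-08) and 0.53 higher at 8 h (adjusted p = 0.00255). It then fell by 0.77 from 3 to 8 h (adjusted p = 0.000382) and by 0.58 from 8 to 16 h (adjusted p = 0.00717). At 16 h it differed from 0 h by -0.05 (95% interval -0.31 to 0.21, adjusted p = 0.815). The call from 8 to 16 h was lost without WT 8 h replicate 3 (-0.45, adjusted p = 0.0593) or WT 16 h replicate 2 (-0.47, adjusted p = 0.0691), and without all arrays of WT replicate 2 (-0.55, adjusted p = 0.0759) or with the arrays shifted to one median (-0.65, adjusted p = 0.0833).

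The KO arrays of 1428479_at went through the same steps at higher values. They read 12.06, 12.30 and 12.13 at 0 h, 13.75, 13.95 and 13.76 at 3 h, 13.07, 13.28 and 13.16 at 8 h, and 12.40, 12.48 and 12.70 at 16 h. The change from 0 h was 1.66 at 3 h (adjusted p = 6.92e-10), 1.01 at 8 h (adjusted p = 1.69e-06) and 0.37 at 16 h (adjusted p = 0.0309). The call at 16 h was lost without KO 0 h replicate 1 (0.31, adjusted p = 0.116) or 3 (0.35, adjusted p = 0.0776) or KO 16 h replicate 3 (0.28, adjusted p = 0.143), and after quantile normalization (0.20, adjusted p = 0.24) or a shift of the arrays to one median (0.36, adjusted p = 0.198). In the order of the 8 group means, KO at 3 h came first at 13.82 ± 0.11 (SD, n = 3), apart from the next, WT at 3 h, at 13.22 ± 0.10. WT at 3 h overlapped KO at 8 h, and the lowest groups, WT at 0 h and WT at 16 h, overlapped each other.

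**Figure D1:**
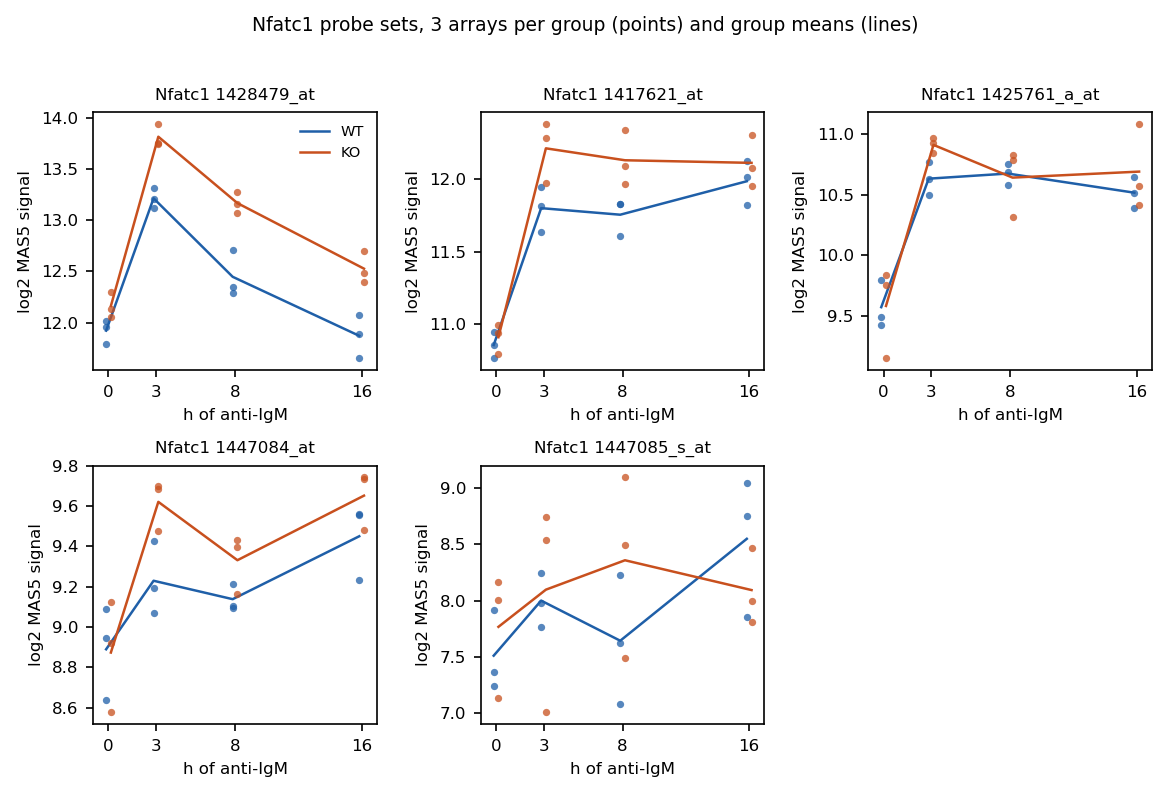
Log2 MAS5 signal of the 5 Nfatc1 probe sets (vertical axes, each with its own range) against hours of anti-IgM (horizontal axes), with points for the 3 arrays of each group and lines through the group means of WT (blue) and KO (orange). In 1428479_at both lines peak at 3 h, at 13.22 for WT and 13.82 for KO, and in 1417621_at they stay up to 16 h.

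Of the other Nfatc1 probe sets, 1417621_at and 1425761_a_at were higher than at 0 h at all 3 later times in both genotypes. In 1417621_at the WT arrays read 10.86, 10.95 and 10.76 at 0 h, 11.81, 11.95 and 11.64 at 3 h, and 12.12, 12.01 and 11.82 at 16 h. All stimulated WT arrays lay above all arrays at 0 h. The change from 0 h was 0.94, 0.90 and 1.13 at 3, 8 and 16 h in WT. In KO it was 1.30 at 3 h and 1.22 at 8 h and had a 95% interval of 0.93 to 1.48 at 16 h, with adjusted p at or under 1e-05 throughout. In 1425761_a_at it was 1.06, 1.10 and 0.95 in WT and 1.33, 1.06 and 1.11 in KO, all 6 called. In 1447084_at it was called at 16 h in WT (0.56, adjusted p = 0.00839) and at 3, 8 and 16 h in KO (0.75, 0.46 and 0.78). The WT call at 16 h was lost without WT 0 h replicate 1 (0.43, adjusted p = 0.0661). The KO call at 8 h was lost without KO 0 h replicate 1 (0.31, adjusted p = 0.222) or 3 (0.48, adjusted p = 0.0632), or KO 8 h replicate 2 (0.41, adjusted p = 0.119) or 3 (0.42, adjusted p = 0.107), or with the arrays shifted to one median (0.50, adjusted p = 0.0975). The fifth, 1447085_s_at, had the widest spread within groups of the Nfatc1 sets (median SD 0.56) and no called change.

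Because 1428479_at fell after 3 h while 1417621_at was still above its 0 h level at 16 h, the difference 1428479_at minus 1417621_at was taken within each array and set relative to its mean over the 6 arrays at 0 h. The size of such a difference depends on the probes, so only its change over time is read. The pair was chosen after its values were seen, and the change is a description with no test. Relative to 0 h the WT arrays were at 0.24, 0.02 and 0.52 at 3 h and at -1.40, -1.52 and -0.90 at 16 h. The KO arrays were at 0.31, 0.41 and 0.63 at 3 h and at -0.84, -0.98 and -0.41 at 16 h. No array at 16 h reached any array at 3 h. From 3 to 16 h the difference changed by -1.53 in WT and -1.19 in KO. Where the probes of either set lie on the transcript is not given in the sources used here.

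**Figure D2:**
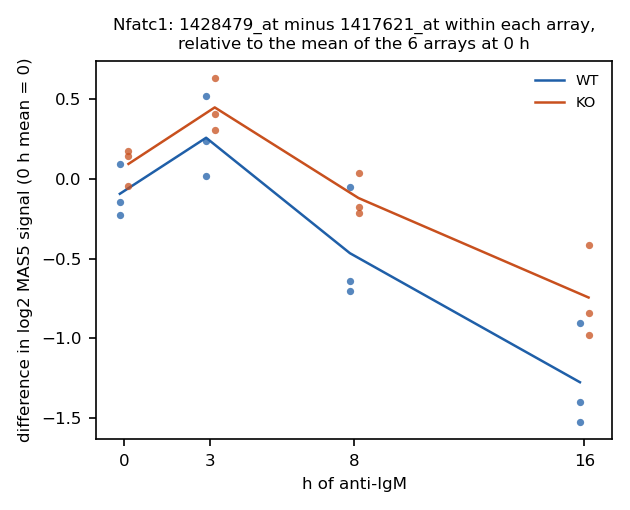
Within-array difference in log2 MAS5 signal between the Nfatc1 probe sets 1428479_at and 1417621_at, relative to its mean over the 6 arrays at 0 h (vertical axis), against hours of anti-IgM (horizontal axis), with points for single arrays and lines through the means of WT (blue) and KO (orange). The means are highest at 3 h, at 0.26 in WT and 0.45 in KO, and lowest at 16 h, at -1.27 and -0.74.

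In no Nfatc1 probe set was a lower signal called in KO than in WT cells, at any time or in the average. In 1428479_at the KO arrays lay above the WT arrays at each of the 4 times with no overlap, by 0.24, 0.60, 0.72 and 0.66 in order of time, with adjusted p of 1, 0.166, 0.0276 and 0.0171. Averaged over the 4 times the difference was 0.56 (SE 0.0637, 95% interval 0.42 to 0.69, 1.47-fold, adjusted p = 2.28e-05). Taking the mean of each replicate number over the 4 times, the lowest KO mean was 12.82 and the highest WT mean 12.53. Compared as 3 against 3, these means do not overlap but the adjusted p in limma was 0.271, and an exact permutation test cannot go below p = 0.1 with 3 against 3.

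The calls at single times were less firm. At 8 h the call was lost without WT replicate 1 (0.67, adjusted p = 0.18) or 2 (0.64, adjusted p = 0.19), or without KO replicate 1 (0.77, adjusted p = 0.0604), 2 (0.67, adjusted p = 0.149) or 3 (0.73, adjusted p = 0.0962). At 16 h it was lost without WT replicate 1 (0.66, adjusted p = 0.0542) or 2 (0.55, adjusted p = 0.169), or without KO replicate 2 (0.68, adjusted p = 0.0562) or 3 (0.57, adjusted p = 0.0935). Without all 4 arrays of WT replicate 2, the averaged difference was still called, while that at 8 h (0.64, adjusted p = 0.316) was not, nor was that at 16 h (0.55, adjusted p = 0.209). The averaged call was kept without any single array, at 0.53 to 0.59. Since the probes' position against exon 3 is not given, these probe sets check neither the deletion nor the labels.

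The 4 other Nfatc1 probe sets also had positive averaged differences, of 0.11 to 0.24, none called. At single times KO lay below WT once in each of 3 of them, by -0.03 in 1425761_a_at at 8 h, -0.02 in 1447084_at at 0 h and -0.45 in 1447085_s_at at 16 h, none called. The nearest was 1417621_at at 0.24 (95% interval 0.11 to 0.38, adjusted p = 0.102), which was called without KO 3 h replicate 3 (0.27, adjusted p = 0.0434). Over the times replicate 3 had the lowest mean of 1417621_at in both genotypes, at 11.46 in WT and 11.67 in KO. The removal thus takes a low array from KO alone. At 16 h, 1 of the 8 myeloid markers tested (Adgre1) was also called higher in KO. So were 3 of the 8 B cell markers (Cd22, Cr2 and Fcer2a), while the other 5 were not called. Of all probe sets, 0.367% were called at 16 h. The log2 summed signal of the myeloid list was 11.9 to 13.6 in KO and 11.4 to 12.3 in WT at that time, and that of the B cell list was at least 15.3 in KO and at most 15.2 in WT. Their part in the Nfatc1 difference was not tested.

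**Figure D3:**
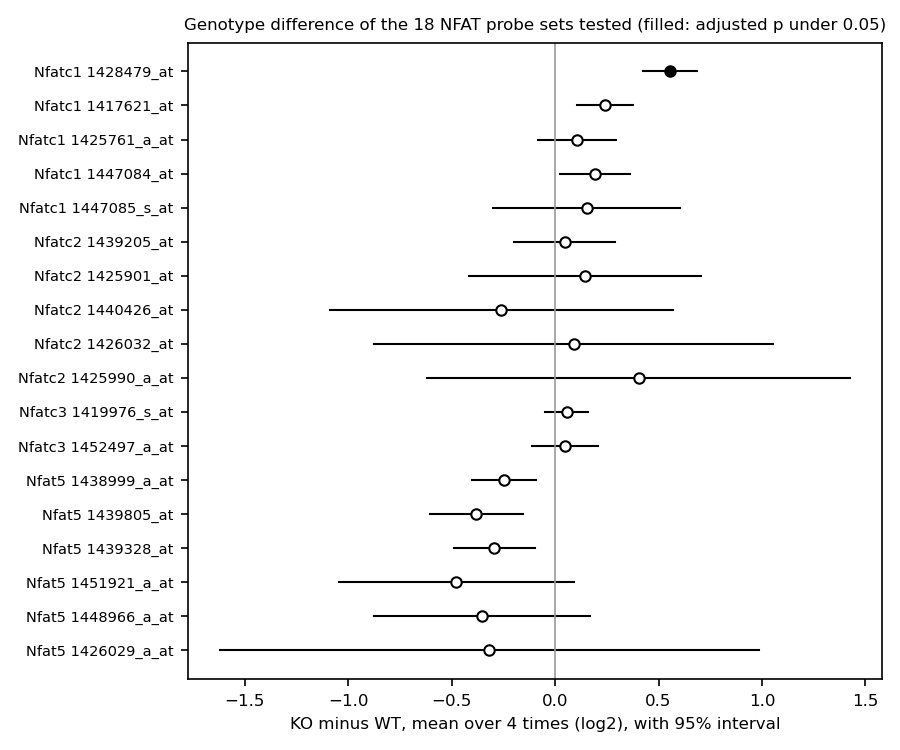
KO minus WT averaged over the 4 times, in log2 (horizontal axis), for the 18 NFAT probe sets tested, with limma's 95% interval as a line and a filled point where the adjusted p was under 0.05. Only Nfatc1 1428479_at, at 0.56, is filled, and all 6 Nfat5 points lie left of 0.

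Across the 18 tested probe sets, KO minus WT was called in 1 in the average (0.803% of all probe sets were called there), 1 at 8 h (0.0717%) and 1 at 16 h (0.367%), each time 1428479_at. In limma 0 were called at 0 h (0.0209% of all) and 0 at 3 h (0.0388%). At an unadjusted p under 0.05 there were 2 members at 0 h and 4 at 3 h, beside 1150 and 1130 of all 33486 probe sets, and 6 in the average, beside 2775. The difference between the genotypes in the change from 0 h was called in 0 members at 3, 8 or 16 h and 0 in the moderated F-test. Of all probe sets 0%, 0%, 0.00597% and 0% were called. In those single contrasts an unadjusted p under 0.05 was reached by 0, 1 and 1 members, beside 742, 948 and 1263 of all probe sets, each time 1428479_at, whose change from 0 h exceeded that of WT by 0.48 at 8 h (95% interval 0.11 to 0.85, adjusted p = 1). Its moderated F-test in limma gave an adjusted p of 1.

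Nfatc2, the member known as the preformed NFAT of resting lymphocytes, had called falls in its brightest probe set alone. This set, 1439205_at, read 9.11, 9.91 and 9.36 in the WT arrays at 0 h and 7.85, 8.37 and 8.35 at 3 h. The KO arrays read 9.79, 9.40 and 9.59 at 0 h and 8.34, 7.89 and 8.31 at 3 h. In both genotypes all arrays at 3 h lay below all arrays at 0 h. The fall was -1.27 in WT (SE 0.235, adjusted p = 0.000154) and -1.41 in KO (adjusted p = 4.31e-05), the steepest among the members' probe sets that were above the filter level on all arrays.

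At 8 and 16 h the group means of 1439205_at were still below those at 0 h. The WT arrays at 16 h, up to 9.13, overlapped those at 0 h, the lowest of which was 9.11. The change from 0 h was -0.74 at 8 h and -0.76 at 16 h in WT (adjusted p = 0.0197 and 0.0138), and -0.96 and -0.76 in KO (adjusted p = 0.00332 and 0.0153). The rise from 3 to 8 h was not called in WT (0.53, adjusted p = 0.184) or KO (0.46, adjusted p = 0.236). The WT call at 8 h was lost without WT 0 h replicate 2 (-0.52, adjusted p = 0.149) or WT 8 h replicate 2 (-0.71, adjusted p = 0.0605). That at 16 h was lost without WT 0 h replicate 2 (-0.53, adjusted p = 0.113), WT 16 h replicate 1 (-0.69, adjusted p = 0.0532) or 2 (-0.61, adjusted p = 0.0837). The KO call at 16 h was lost without KO 0 h replicate 1 (-0.66, adjusted p = 0.07) or KO 16 h replicate 3 (-0.57, adjusted p = 0.0993). Without WT replicate 2 at all times the WT changes were -0.48 at 8 h (adjusted p = 0.267) and -0.38 at 16 h (adjusted p = 0.359), while that at 3 h was still called. Quantile normalization ended the 16 h calls in WT (-0.56, adjusted p = 0.0608) and KO (-0.58, adjusted p = 0.0601). A shift of the arrays to one median ended the WT call at 8 h (-0.58, adjusted p = 0.0842).

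No genotype difference was called in Nfatc2 1439205_at, whose averaged KO minus WT was 0.05 (95% interval -0.20 to 0.29, adjusted p = 0.978). In the order of its group means the arrays of each 2 neighbours overlapped, except that WT at 3 h and KO at 3 h lay below KO at 8 h. The 4 dimmer Nfatc2 probe sets had no called change, with median SDs within groups of 0.41 to 1.29. In the brightest of these, 1425901_at, the change from 0 h at 3, 8 and 16 h was 0.79, 0.81 and 0.45 in WT, opposite in sign to 1439205_at. In KO it was 0.11, -0.73 and -0.01.

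Nfatc3 fell less. In 1452497_a_at the WT arrays read 11.53, 11.68 and 11.38 at 0 h, 10.78, 10.96 and 10.76 at 3 h, 11.19, 11.06 and 10.70 at 8 h, and 10.63, 10.61 and 10.64 at 16 h. All stimulated arrays lay below those at 0 h. The change was -0.69 at 3 h (adjusted p = 0.00104), -0.54 at 8 h (adjusted p = 0.00956) and -0.90 at 16 h (adjusted p = 5.17e-05) in WT. In KO it was -0.52 (adjusted p = 0.0115), -0.42 (adjusted p = 0.0488) and -0.80 (adjusted p = 0.000242). The WT call at 8 h was lost without WT 0 h replicate 2 (-0.47, adjusted p = 0.0542) or WT 8 h replicate 3 (-0.40, adjusted p = 0.0771), and the KO call at 3 h without KO 0 h replicate 1 (-0.36, adjusted p = 0.101) or KO 3 h replicate 3 (-0.46, adjusted p = 0.0534). The KO call at 8 h was lost without any of 16 arrays (adjusted p up to 0.28, without KO 0 h replicate 1). Without WT replicate 2 at all times the WT change at 8 h was -0.51 (adjusted p = 0.0919) and the KO change at 8 h -0.42 (adjusted p = 0.0709).

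The other Nfatc3 probe set, 1419976_s_at, had the smallest spread of the family (median SD 0.07) and small changes. It read 11.55, 11.60 and 11.57 in WT at 0 h and 11.26, 11.20 and 11.32 at 3 h, without overlap. The change was -0.31 at 3 h (adjusted p = 0.0169), -0.14 at 8 h (adjusted p = 0.327) and -0.47 at 16 h (adjusted p = 0.000568) in WT, and -0.41, -0.13 and -0.29 in KO (adjusted p = 0.00245, 0.379 and 0.0268). The WT call at 3 h was lost without WT 0 h replicate 2 (-0.30, adjusted p = 0.0538) or WT 3 h replicate 2 (-0.29, adjusted p = 0.0635), and it was -0.27 (adjusted p = 0.155) without WT replicate 2 at all times and -0.08 (adjusted p = 0.799) with the arrays shifted to one median. Under that shift only the 16 h changes of 1452497_a_at stayed called among those of Nfatc3. The KO call at 16 h was lost without any of 5 arrays, namely KO 0 h replicates 1, 2 and 3 and KO 16 h replicates 1 and 3 (-0.27 to -0.31, adjusted p up to 0.0764). KO minus WT averaged 0.06 in 1419976_s_at (95% interval -0.05 to 0.16) and 0.05 in 1452497_a_at (95% interval -0.11 to 0.21), neither called.

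**Figure D4:**
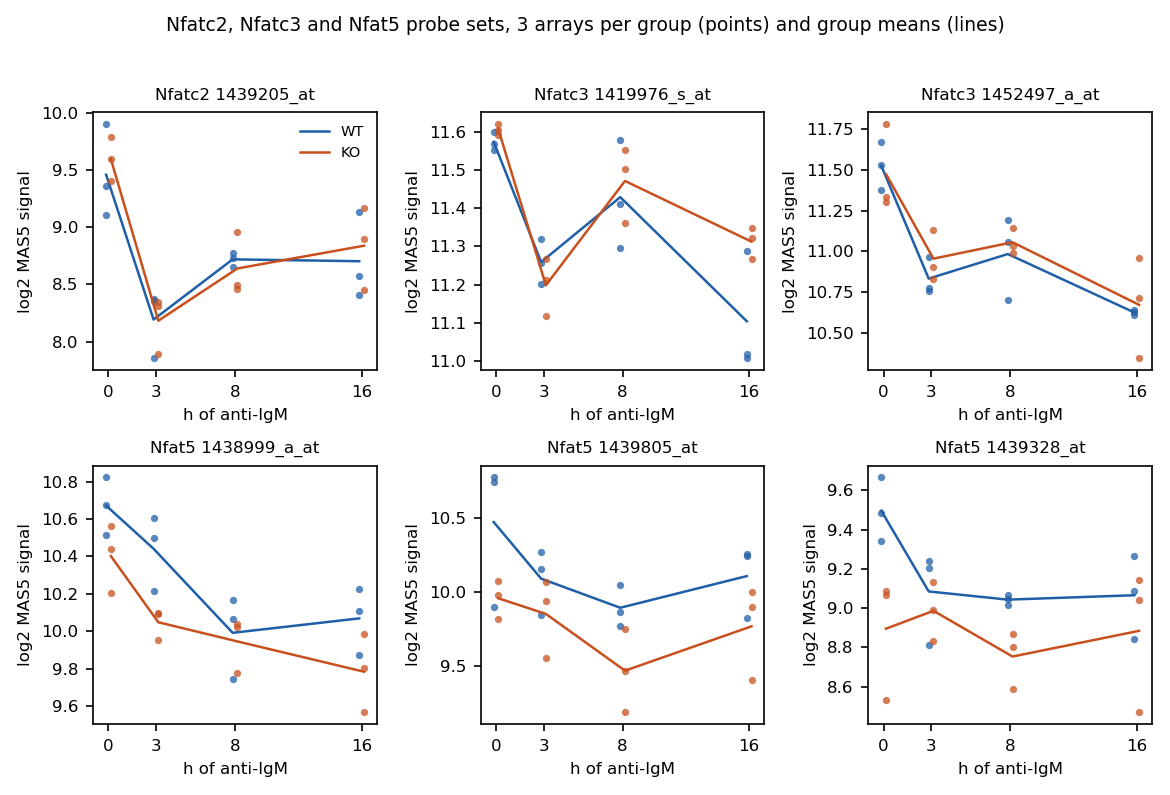
Log2 MAS5 signal of the Nfatc2, Nfatc3 and Nfat5 probe sets above the filter level on all arrays (vertical axes, each with its own range) against hours of anti-IgM (horizontal axes), with points for the 3 arrays of each group and lines through the means of WT (blue) and KO (orange). Nfatc2 1439205_at is lowest at 3 h, at 8.19 in WT and 8.18 in KO, and the KO lines of the 3 Nfat5 panels lie below the WT lines.

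Nfat5, the osmotic stress member, was lower at 8 and 16 h in its brightest probe set, 1438999_a_at. The WT arrays read 10.68, 10.82 and 10.52 at 0 h, 10.22, 10.50 and 10.61 at 3 h, 9.75, 10.17 and 10.06 at 8 h, and 10.23, 9.87 and 10.11 at 16 h. The arrays at 3 h overlapped those at 0 h, and those at 8 and 16 h did not. The change in WT was -0.23 at 3 h (adjusted p = 0.273), -0.68 at 8 h (adjusted p = 0.00111) and -0.60 at 16 h (adjusted p = 0.00257). In KO it was -0.35, -0.46 and -0.62 (adjusted p = 0.0779, 0.0265 and 0.0024). Without WT replicate 2 at all times, the WT change at 16 h was -0.43 (adjusted p = 0.0973). The KO call at 8 h was lost without KO 0 h replicate 1 (-0.38, adjusted p = 0.118) or 3 (-0.44, adjusted p = 0.0695), or KO 8 h replicate 1 (-0.37, adjusted p = 0.128). Of the other Nfat5 sets, 1439805_at was called in WT at 8 h (-0.58, adjusted p = 0.0476), a call lost without any of 15 arrays (adjusted p up to 0.219, without WT 0 h replicate 2) and without all of WT replicate 2 (-0.50, adjusted p = 0.231). The 4 others had no called change. With the arrays shifted to one median only the KO change of 1438999_a_at at 16 h stayed called.

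In KO minus WT all 6 Nfat5 probe sets had negative averaged values, and none was called. Over all probe sets tested 49.4% had a negative average. The 3 bright ones read -0.25 in 1438999_a_at (95% interval -0.40 to -0.09, adjusted p = 0.176), -0.38 in 1439805_at (-0.60 to -0.16, adjusted p = 0.128) and -0.29 in 1439328_at (-0.49 to -0.10, adjusted p = 0.232). Of the 6, 4 were below WT at all 4 times, where 10% of all probe sets were. The 6 report 1 gene on the same arrays and are not independent. In 1439805_at WT 0 h replicate 3, at 9.90, lay apart from the others at 10.75 and 10.78. Without it the averaged value was -0.45 (adjusted p = 0.0171). Over the 4 times replicate 3 had the lowest mean of 1439805_at in both genotypes, at 9.84 in WT and 9.56 in KO. The removal thus takes a low array from WT alone.

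Counted over the 18 tested probe sets, 3 rose (all Nfatc1) and 3 fell (Nfatc2 and both of Nfatc3) in WT at 3 h, where 32.8% of all probe sets were called, 14.8% higher and 18% lower. At 8 h there were 3 higher and 4 lower (28.4% of all, 14.2% in each direction). At 16 h there were 3 and 4 (35% of all, 16.3% higher and 18.7% lower). In KO there were 4 higher and 3 lower at 3 h (32.2% of all, 14.7% and 17.5%) and 4 and 3 at 8 h (26.3% of all, 13.4% and 12.9%). At 16 h there were 4 and 4 (31.5% of all, 15% and 16.5%). Read against these backgrounds, the counts show nothing particular to the family. Between 3 and 8 h 1 was called in WT (9.91%) and 1 in KO (13.1%), and between 8 and 16 h 1 in WT (5.69%) and 1 in KO (3.25%), each time a fall of Nfatc1 1428479_at. The median change of the members at 3 h in WT was -0.07, beside -0.13 for all probe sets. That background shift depended on the scaling: it was 0.02 after quantile normalization and 0.11 with the arrays shifted to one median. The split of all calls at 3 h in WT moved with it, from 4942 higher and 6027 lower to 5574 and 5036, and to 5693 and 3572. Every called member change kept its direction under both.

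**Figure D5:**
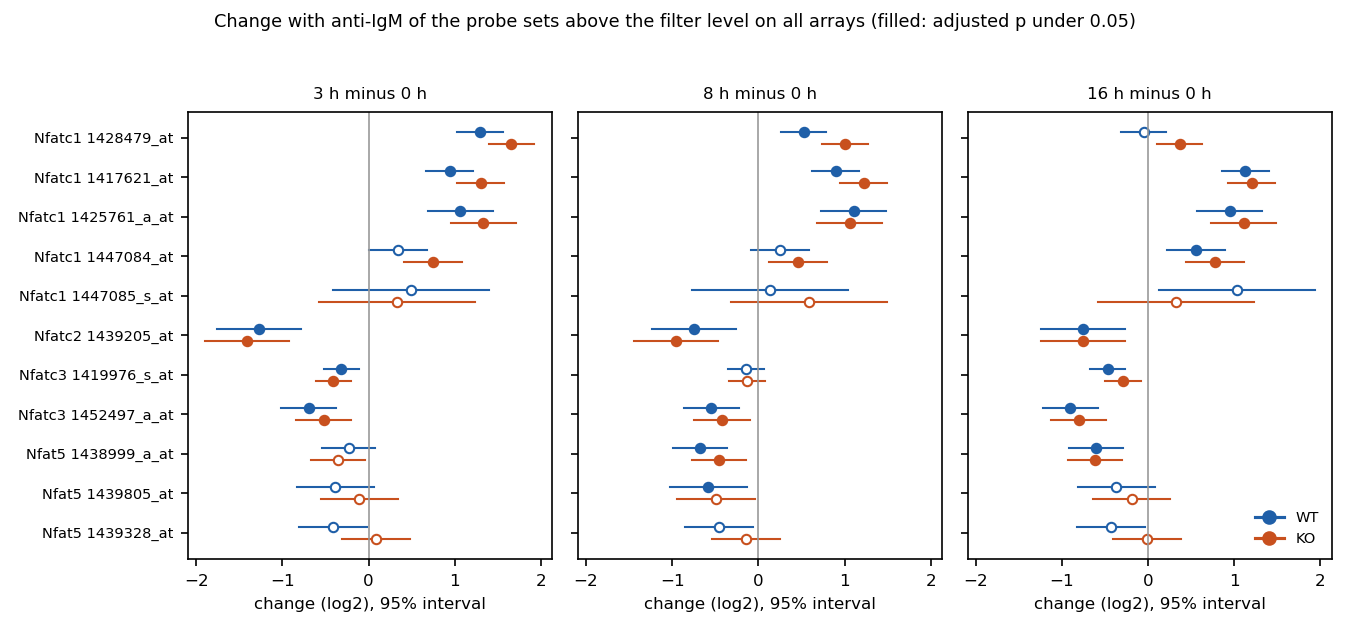
Change in log2 MAS5 signal from 0 h (horizontal axes) at 3, 8 and 16 h of anti-IgM for the 11 NFAT probe sets above the filter level on all arrays, in WT (blue) and KO (orange), with limma's 95% intervals as lines and filled points where the adjusted p was under 0.05. Filled Nfatc1 points lie right of 0 and filled points of the other members left of 0, and at 16 h the WT point of Nfatc1 1428479_at is at -0.05.

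The pathway around the members was read from lists chosen with earlier results of these data known, 1 probe set a gene. Upstream, the calcium release and entry list had 1 gene higher and 6 lower of 8 tested in WT at 3 h, where 14.8% of all probe sets were higher and 18% lower. Orai1, the pore of the calcium channel, rose by 1.80, while Stim1, the sensor that opens it, was at -1.15, and Itpr3, a channel of the calcium store, at -2.11. Of the 4 calcineurin subunits 0 were higher and 2 lower: the catalytic subunits Ppp3ca at -1.51 and Ppp3cc at -1.95. The NFAT kinases had 1 higher (Csnk1d, 0.58) and 1 lower (Gsk3b, -0.90) of 7. Among NFAT's partners 2 were higher and 7 lower of 11. Irf4 was higher (1.75), as was the AP-1 member Fosl2, which went from 6.09, within the range of the filter levels, to 9.70. The AP-1 members Fos (-5.81, from 14.65 at 0 h to 8.84) and Jun (-5.11, from 13.26 at 0 h to 8.15) were among the 7.

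In KO minus WT averaged over the times, where 0.803% of all probe sets were called, 0 calcineurin subunits, 0 kinases and 0 partners were called. Itpr3 was 0.41 higher (adjusted p = 0.0407), the only call of 8 in the calcium list. Of the 5 NFAT binding proteins 1 was called, Lrrk2, a kinase, at 0.57 (adjusted p = 0.0185) and at 1.51 at 16 h (adjusted p = 0.00222). Of the 5 NFAT5 osmotic targets tested, among them the transporters Slc5a3 (-0.27) and Slc6a6 (-0.03), 0 were called. The genes known to be driven by NFAT had 0 higher and 4 lower of 10, Egr2, Ifng, Pdcd1 and Rcan1, on a list chosen with these results known, so that the count is no independent evidence. Egr2 (-1.03) and Rcan1 (-0.61) had group means above the filter levels throughout. Pdcd1 was below them in both genotypes at 0 and 3 h and in KO at 8 h, while at 16 h both means were above them and differed by -3.29 (adjusted p = 0.0337). Ifng had group means of 6.81 to 8.81 in WT and 5.51 to 6.35 in KO, the latter within the range of the filter levels, so no fold is given. Ifng is also a product of NK and T cells: of the 5 NK markers tested 0 were called in the average and 1, Nkg7, was lower in KO at 16 h, at 3.96 against 6.61 in WT and below the filter levels in KO, when the NK list's log2 summed signal was 6.72 to 7.87 in KO and 7.19 to 7.90 in WT. Its part in the Ifng value was not tested. With genotype and replicate number as a random block, 44 of all probe sets were higher and 46 lower in the average, in place of 148 and 121. Whether the averaged calls of the genes in these lists were kept under that block was not looked at.

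Rcan1, the calcineurin inhibitor whose induced promoter is a textbook NFAT target, belongs to that list, chosen with these results known. At 0, 3, 8 and 16 h it read 8.31 ± 0.11, 8.92 ± 0.21, 9.46 ± 0.20 and 11.03 ± 0.32 in WT (SD, n = 3). In KO it read 8.41 ± 0.07, 8.78 ± 0.02, 8.75 ± 0.36 and 9.33 ± 0.23. The genotypes differed by -1.70 at 16 h (SE 0.186, adjusted p = 6.99e-05), when Nfatc1 1428479_at was 0.66 higher in KO. The part of NFATc1 in the Rcan1 difference was not tested. One of its 2 promoter windows in the RefSeq table is shown because it held 3 NFAT cores, 1 AP-1 motif (110 bases before the start) and 1 cyclic AMP response element (175 before), here in capitals. The other held none of the 3 motifs.
Rcan1 chr16:92400029-92400328 (minus strand): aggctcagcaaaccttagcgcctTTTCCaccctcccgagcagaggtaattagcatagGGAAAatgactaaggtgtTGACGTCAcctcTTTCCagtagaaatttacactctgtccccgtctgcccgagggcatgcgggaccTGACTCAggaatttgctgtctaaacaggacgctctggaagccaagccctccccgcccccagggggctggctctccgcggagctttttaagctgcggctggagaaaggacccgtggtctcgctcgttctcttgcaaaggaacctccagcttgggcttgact

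Among 14317 other genes, those whose 8 group means were most like each member's were listed by Pearson's r, as a description over groups that share their arrays. For Nfatc1 1428479_at these were Cenpb (0.986), Pea15a (0.976), Degs1 (0.969) and Gla (0.963). For Nfatc2 1439205_at they were Ngly1 (0.998), Chst15 (0.998), Thnsl1 (0.996) and Add3 (0.994). For Nfatc3 1419976_s_at they were Gpbp1l1 (0.994), Trim56 (0.989), Rhobtb2 (0.986) and Zadh2 (0.985), and for Nfat5 1438999_a_at R3hcc1l (0.956), Tbrg3 (0.954), Sema3c (0.954) and Pdpk1 (0.953). Over the 24 single arrays r was lower for all 16, from 0.27 for Sema3c to 0.93 for Degs1.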

How the data were processed

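RNA of 24 samples was hybridised to 1 Affymetrix array each. MAS5 made the signals, per the submitters' processing notes, which give no version. The deposited values are log2 signals (turned back to a linear scale, they had 1 decimal) and entered the fits unchanged. Controls (64 probe sets) were left out, and a probe set was tested when it exceeded its own array's 40th percentile on at least 3 arrays. limma 3.58.1 in R 4.3.3 fitted a mean for each group to the 24 arrays together, leaving 16 residual degrees of freedom, with eBayes and a trend, and p-values were adjusted by Benjamini-Hochberg over 33486 probe sets. The fit was tested on simulated data. The number of arrays limits the precision, and no detection calls were used.

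Contrasts were the genotype difference (singly by time, and averaged), changes over time within a genotype, and the differences between these changes. Every probe set of the 4 members was reported. The members and lists were chosen with earlier results of these data known, and the promoter windows, motifs and Nfatc1 probe pair after values were seen. Whether arrays with 1 replicate number share mice across times is not given in the labels. Alternatives were other scalings, filters, blocks and fits, and arrays left out. Gene symbols come from the probe table; the Entrez IDs of all 19 probe sets gave the same symbols in the gene reference.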

Additional observations from a re-analysis of the deposited data

How the results depend on the processing

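For 54 results of single probe sets set against each alternative, 1862 comparisons kept their side of the threshold, 151 lost the call, 4 gained it and 0 changed direction. The count of members called in KO minus WT, 1 at 8 h and 1 at 16 h, was 0 at both times with arrays shifted to one median, with the groups compared alone, in eBayes without trend, with a minimum of 1.2-fold, without the 4 male-type arrays and without the 2 arrays of highest 40th percentile. The averaged count of 1 was 0 for means over the times compared 3 against 3. With replicate number as a fixed block it was 3 (also Nfatc1 1417621_at, adjusted p = 0.000948, and Nfat5 1439805_at, adjusted p = 0.00541), and KO minus WT had 2 calls at 3 h and 2 at 8 h. Under that block, with genotype and number as a random block (correlation 0.215), and with genotype and number as a fixed block, added after seeing the data, 2 members were called in WT from 3 to 8 h, WT from 8 to 16 h and KO from 3 to 8 h, in place of 1. Arrays of the same genotype and number at different times deviated together in 23 of 36 pairs (r over 0.1; range 0.04 to 0.37), and 24 of 24 arrays correlated best with their own number within a genotype and 20 of 24 across genotypes, a hint from the data and not from the design. The filter at the 60th percentile gave 2 in the same 3 contrasts, and quantile normalization 2 in KO from 3 to 8 h. With arrays shifted to one median the counts were 3 in WT at 8 h against 0 h, 4 in KO at 8 h, 0 in WT and 0 in KO from 8 to 16 h. With a minimum of 1.2-fold they were 3 in WT at 8 h and 3 at 16 h, 4 in KO at 8 h and 4 at 16 h, and 0 in WT from 8 to 16 h, KO from 3 to 8 h and KO from 8 to 16 h. With the groups alone they were 4 in KO at 8 h and 0 in both genotypes from 8 to 16 h. Without the male-type arrays they were 4 in WT at 8 h and 0 in WT from 8 to 16 h, and without the 2 highest arrays 0 in KO from 8 to 16 h. The cause of these changes in count was not tested. The last 2 alternatives also had fewer arrays.

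Leaving out each array in turn, the counts ran from 0 to 0 in KO minus WT at 0 and 3 h, 0 to 1 at 8 and 16 h and 1 to 2 in the average. In WT they ran from 5 to 7 at 3 h, 5 to 7 at 8 h and 6 to 8 at 16 h against 0 h, 1 to 2 from 3 to 8 h and 0 to 2 from 8 to 16 h. In KO they ran from 6 to 8, 4 to 7 and 5 to 8 against 0 h, and 1 to 1 in both later steps. KO without 0 h replicate 1 gave the 4 at 8 h and, like KO without 16 h replicate 3, the 5 at 16 h. The interaction counts were 0 in all. A count for the brightest probe set of each gene was not given, since it counts genes, and the F-test was not run under the alternatives. The 7 probe sets near the filter level, 3 of Nfat5 and 4 of Nfatc2, have spreads that leave small changes undetectable here.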
